A study of Homo sapiens with 8 samples.

Results

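The 32 genes described here are well-known transcriptional targets of p53, a transcription factor that responds to DNA damage. They were taken by gene name from a fixed list, and all 32 were found among the 19351 gene names of the deposited tables, each represented by its transcript with the largest span. Their nascent RNA was followed by GRO-seq, a run-on assay that labels and sequences the RNA that engaged polymerases add in isolated nuclei. The cells were MRC5 lung fibroblasts immortalized with SV40, named MRC5_VA in the study's methods. They were either wild-type (WT) or carried a knockdown (KD) of the long noncoding RNA *ZFAS1*, made with a lentiviral short hairpin RNA. Every culture, controls included, was given DRB (100 µM, 3.5 h), which keeps RNA polymerase II near the starts of genes. Cells then got UV-C at 10 J/m2 or none, and the run-on followed 10 or 40 min after the DRB was removed. The 8 combinations of cell, UV and time were each represented by 1 library, so no condition was repeated, and nothing shows that any libraries came from separate cultures. P-values given here therefore measure the spread left among these 8 libraries, which may be technical.

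p53 is kept scarce in undamaged cells because MDM2, itself a p53 target, marks it for degradation. Damage frees p53, which binds paired DNA repeats near its targets and raises their transcription, and the products arrest the cell cycle, repair or bypass lesions, or trigger apoptosis, while others switch p53 off again. UV-C also leaves lesions in the template that halt RNA polymerase II, so a damaged gene can be signalled to and blocked at once. The large T antigen of SV40 binds p53 and holds it from its targets, which limits these cells as a model of the p53 response. T antigen and p53 protein were not measured here.

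Of the 32 genes, 25 had an entry in the RefSeq promoter table (GRCh38.p14), and the hg38 sequence within 2500 bases of the start of their longest transcript was searched on either strand for the p53 consensus element. The element was read as the consensus repeat of 10 bases placed end to end with its copy, with no spacer, 20 bases in all. The C and G of each core had to be present and up to 2 other bases could differ. Such an element was found near 13 of the 25 genes, against 500 of 13127 tested genes searched in the same way (3.81%). With at most 1 mismatch the counts were 4 of 25 against 69 (0.53%), and with none they were 2 of 25 against 9 (0.07%). The elements of 8 of these genes, picked with the results known, are printed as examples of such matches to the consensus. They are written 5′ to 3′ on the strand of the gene, with the 4 core bases of each repeat in capitals.
CDKN1A, chr6:36676449-36676468, 2 mismatches: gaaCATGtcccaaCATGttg
MDM2, chr12:68808923-68808942, 2 mismatches: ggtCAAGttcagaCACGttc
BTG2, chr1:203303642-203303661, 2 mismatches: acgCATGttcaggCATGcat
CCNG1, chr5:163437926-163437945, 1 mismatch: gcaCAAGcccaggCTAGtcc
PMAIP1, chr18:59899549-59899568, 2 mismatches: gggCTTGtttaccCAAGtct
PLK2, chr5:58462274-58462293, 0 mismatches: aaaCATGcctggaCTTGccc
ZMAT3, chr3:179070188-179070207, 0 mismatches: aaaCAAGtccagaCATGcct
EDA2R, chrX:66638713-66638732, 1 mismatch: gaaCATGcctggaCGTGtcc
The element of *CDKN1A* lay at -2200 bases from the deposited start, that of *PLK2* at -2198 and that of *BTG2* at -1868, all before the start, whereas those of *MDM2* (756 bases) and *ZMAT3* (1612 bases) lay after the start, inside the gene. In the narrower window from 250 bases before to 50 after the start, a single copy of the repeat occurred in 6 of 36 windows of these genes (16.67%) and in 6.63% of all windows. Here all windows are the 35116 of the whole promoter table, not limited to tested genes. The GC box GGGCGG was in 32 of the 36 windows (88.9%, against 45.0% of all) and TATAA in 2 (5.6%, against 20.4%), on either strand. Among the genes described most fully, no element of this form was in the searched window of *PPM1D*, *POLH*, *TIGAR*, *SESN2*, *TP53I3* or *RPS27L*. *GADD45A*, *PHLDA3*, *FBXO22*, *TNFRSF10B* and *RRM2B* were not searched. These matches describe the sequence and do not show that p53 was bound.

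Nascent RNA of the targets differed in density from gene to gene by more than 2 orders of magnitude. Density is given here as read counts per M reads of the library (CPM), scaled between libraries by TMM, per kb of gene span. Such values are relative to the other genes of a library. A rise or fall common to most genes, with time, UV or KD, is therefore removed by the scaling and cannot be seen here. It was highest for the cell-cycle genes *GADD45A* (mean of 8 libraries 24.2 CPM per kb), whose product binds PCNA and cyclin-dependent kinase, and *PLK2* (19.1 CPM per kb), a polo-like kinase. *RPS27L*, a ribosomal-protein relative, had 12.0 CPM per kb, and *PMAIP1*, which encodes the BH3-only killer NOXA, 7.45 CPM per kb. *CDKN1A*, the p21 gene and the best-known p53 target, had a mean of only 1.68 CPM per kb.

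To tell transcribed targets from silent ones, each density was divided by the median density of 92 genes of tissue-restricted families in the same library. By this measure 15 of the 32 targets lay at least 3 times above the silent level in all 8 libraries, as did 5794 of 17840 tested genes (32.48%), and the other 17 did so in 1 to 7 libraries. Closest to the silent level were *SESN1*, a stress-induced inhibitor of mTORC1 signalling (median 0.84 times the silent level), and the death receptor gene *FAS* (median 1.10 times). *EDA2R*, *SESN2*, *TNFRSF10C*, *FDXR* and *SPATA18* had medians from 1.72 to 2.15 times. In most libraries the reads of these 7 genes were thus at or near the background, which limits ratios between libraries. Their highest values were those of *EDA2R* (12.49 times the silent level), *SESN2* (11.39 times) and *SESN1* (6.25 times), each in WT without UV at 40 min.

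**Figure D1:**
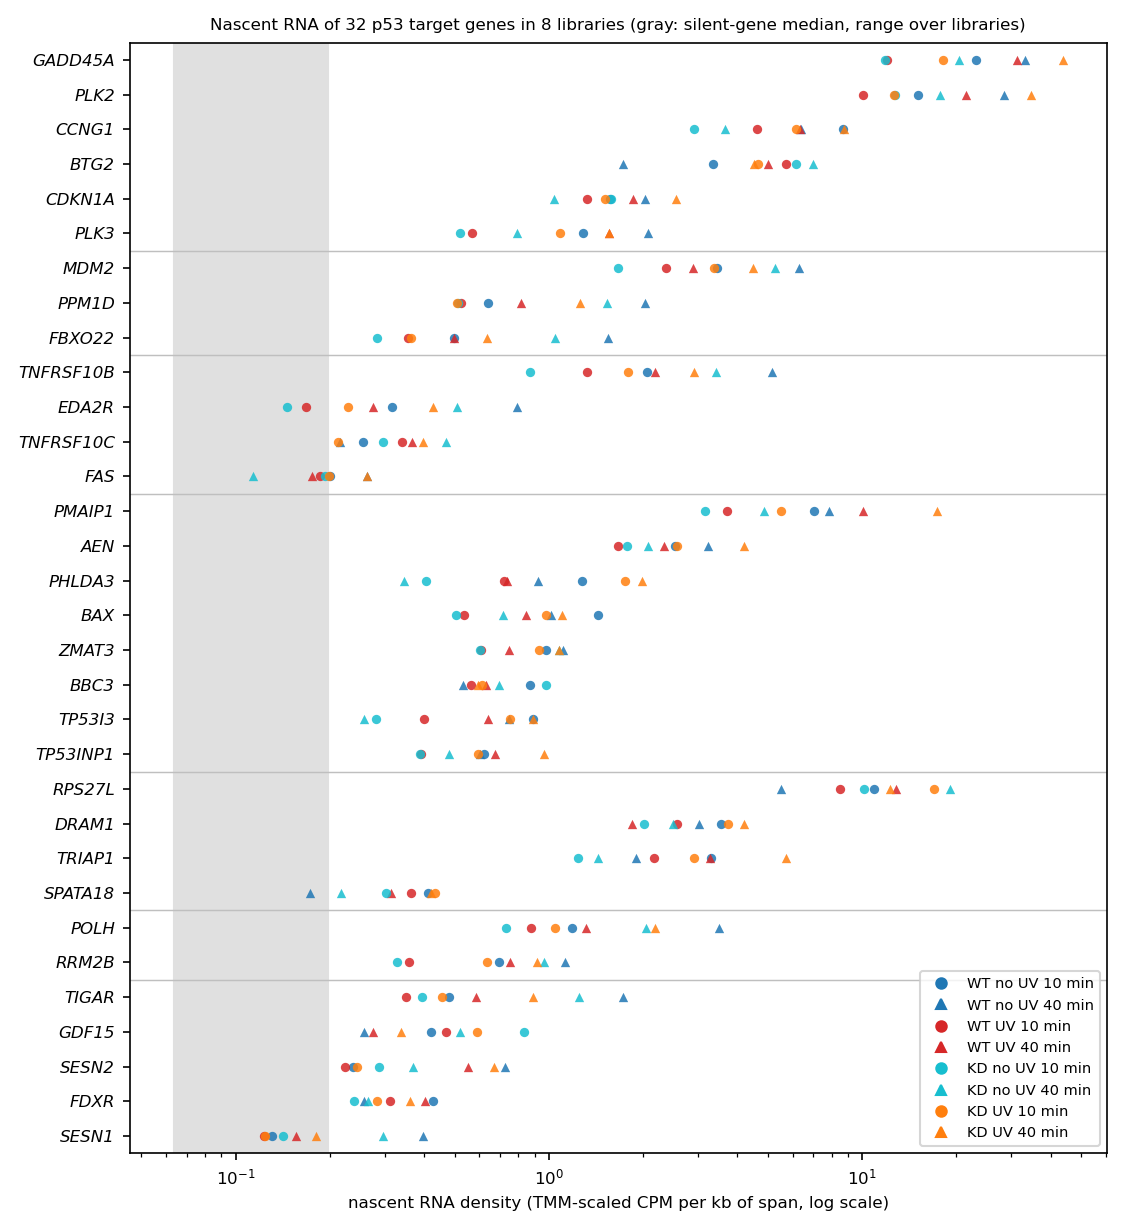
Nascent RNA density (x axis, TMM-scaled CPM per kb of span, log scale) of the 32 p53 target genes, ordered by role and by mean density. Each point is 1 library, and the gray band is the range over libraries of the silent-gene median. *GADD45A* and *PLK2* lie highest, and the points of *FAS* and *SESN1* fall in or next to the band.

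The 8 libraries held 10.23 to 21.08 M reads over genes, with WT without UV at 40 min the deepest. Active genes (the 5794 above) had a median density of 6.47 to 16.58 times the silent level in 7 libraries and 29.99 times in WT without UV at 40 min. The tables came in 2 orders of transcripts. WT without UV and KD with UV shared one order, and WT with UV and KD without UV the other, so table order cannot be told apart from any difference between the effects of KD with and without UV. Whether the tables were made in separate batches, or labels exchanged between libraries, was not tested, and either would bear on every KD and UV value here. Within each time, the active-over-silent ratio was also higher in the libraries of the first order (9.87 and 9.63 at 10 min, 29.99 and 16.58 at 40 min) than in those of the second (7.49 and 6.47 at 10 min, 10.21 and 10.93 at 40 min). Of the fibroblast markers, 8 of 10 were at least 3 times the silent level in every library (*DCN* and *THY1* were not), as were 0 of 5 immune, 1 of 5 epithelial, 2 of 4 endothelial and 1 of 4 muscle markers.

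*ZFAS1*, the targeted gene, had 507.2 CPM without UV in WT at 10 min, against 712.5 CPM in the library labelled KD, and 1789 against 1596 CPM at 40 min. After UV it had 634.9 CPM in WT against 694.2 CPM in KD at 10 min, then 586.5 against 921.5 CPM at 40 min. Nascent RNA of the target was thus lower in the library labelled KD in 1 of 4 pairs. A short hairpin RNA acts on finished RNA, so nascent RNA does not check the knockdown.

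Between 10 and 40 min after DRB removal, nascent RNA of the longer targets was mostly higher. Of the 32 genes, 16 were higher at 40 min in all 4 pairs of libraries, against 27.7% of tested genes, and 2 (*GDF15* and *SPATA18*) were lower in all 4, against 25.6%. The median time term of the targets was 0.39 on the log2 scale, and that of all tested genes -0.10. By role, the term was positive in 3 of 3 feedback genes, 4 of 4 death receptors, 2 of 2 genes of nucleotide supply and lesion bypass, 5 of 6 arrest genes, 4 of 5 metabolic and stress genes, 6 of 8 apoptosis effectors and 2 of 4 genes of survival and organelle turnover. No target passed the edgeR quasi-likelihood test for time when fitted without the pairing of libraries. In that test 0.146% of genes were called higher and 0.0% lower, while 13 targets and 3911 genes had an unadjusted p under 0.05. DESeq2 called 9 targets, all higher, where it called 8.54% of genes higher and 0.667% lower. With table order as a further term, which equals blocking by the 4 pairs of cell and UV, 14 were called. All 14 were higher, where 16.6% of genes were higher and 9.42% lower. A filter that treated each library as its own group, added after seeing the data, gave 2 targets, both higher (2.91% of genes higher and 0.143% lower). Leaving out WT with UV at 40 min gave 7 called targets (8.51% of genes higher), leaving out KD with UV at 10 min gave 6 (4.45%) and leaving out KD without UV at 40 min gave 3 (3.57%). In single pairs, 8 targets were at least 2-fold higher at 40 min in WT without UV (12.9% of genes), 6 in WT with UV (5.61%), 9 in KD without UV (16.9%) and 6 in KD with UV (6.97%). In the first pair 1 was at least 2-fold lower (35.3% of genes), and in the other pairs 0 were (2.52%, 8.15% and 3.62%).

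The 2 largest time terms were those of *TIGAR* and *PPM1D*. *PPM1D*, a feedback gene, encodes the phosphatase WIP1, which removes activating phosphates from p53 and its kinases. Its level at 10 and 40 min was 42.3 and 133.7 CPM in WT without UV, 34.6 and 53.7 CPM in WT with UV, 34.0 and 101.0 CPM in KD without UV, and 33.5 and 82.9 CPM in KD with UV. All 4 libraries at 40 min lay above all 4 at 10 min, and the time term was 1.32 ± 0.31 (SE, log2, edgeR adjusted p = 0.0585, 8 libraries). *MDM2*, the ubiquitin ligase that degrades p53, had 146.8 and 267.3 CPM in WT without UV, 100.6 and 122.8 CPM in WT with UV, 70.7 and 223.6 CPM in KD without UV, and 143.6 and 191.3 CPM in KD with UV. It was higher at 40 min in each pair, by 0.29 to 1.66 on the log2 scale, but the times overlapped over all libraries (time term 0.77 ± 0.35, edgeR adjusted p = 0.224).

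Genes for lesion bypass, metabolism and a death receptor had values of the same direction. *POLH*, the polymerase that copies past UV lesions, had 47.0 and 137.9 CPM at 10 and 40 min in WT without UV, 34.6 and 52.1 CPM in WT with UV, 28.8 and 80.8 CPM in KD without UV, and 41.2 and 86.4 CPM in KD with UV. *TIGAR*, a fructose bisphosphatase that slows glycolysis, had 18.6 and 66.8 CPM, 13.6 and 22.7 CPM, 15.3 and 48.4 CPM, and 17.7 and 34.5 CPM in the same order of pairs. For both genes every library at 40 min lay above every library at 10 min, with time terms of 1.20 ± 0.34 (edgeR adjusted p = 0.0778) and 1.32 ± 0.33 (edgeR adjusted p = 0.0618). The whole of *TIGAR* lies within another gene that GENCODE v44 annotates on the same strand, so its reads cannot be assigned to one of them. *TNFRSF10B*, which encodes the TRAIL receptor DR5, had 100.4 and 251.7 CPM in WT without UV, 64.5 and 106.9 CPM in WT with UV, 42.6 and 167.0 CPM in KD without UV, and 87.6 and 142.7 CPM in KD with UV. Here too the times did not overlap (time term 1.14 ± 0.36, edgeR adjusted p = 0.101). *SESN2*, a relative of *SESN1* that senses leucine, had 5.45 and 16.6 CPM in WT without UV, 5.14 and 12.6 CPM in WT with UV, 6.57 and 8.44 CPM in KD without UV, and 5.60 and 15.3 CPM in KD with UV. Its density at 10 min was 1.22 to 1.45 times the silent level, and its time term was 1.21 ± 0.34 (edgeR adjusted p = 0.0777).

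Short targets did not share 1 direction. *PMAIP1* (4.358 kb) had 30.6 and 34.3 CPM at 10 and 40 min in WT without UV, 16.1 and 44 CPM in WT with UV, 13.7 and 21.1 CPM in KD without UV, and 24.1 and 75.7 CPM in KD with UV, and was thus more than 2-fold higher at 40 min only in the pairs with UV. *GADD45A* (3.133 kb) had 72.2 and 104.1 CPM in WT without UV, 37.6 and 97.8 CPM in WT with UV, 37.2 and 63.9 CPM in KD without UV, and 57.0 and 136.9 CPM in KD with UV. The p21 gene *CDKN1A* (8.681 kb) had 13.6 and 17.6 CPM, 11.5 and 16.1 CPM, 13.7 and 9.05 CPM and 13.2 and 22.1 CPM in the same order, so that it was lower at 40 min in KD without UV and higher in the other pairs. *GDF15*, a secreted stress cytokine, had 11 to 31 reads per library and a time term of -0.74 ± 0.41 (edgeR adjusted p = 0.27).

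Part of these differences is shared by all genes of a like length. The black bars in the plot of time ratios against span show that, without UV, active genes of 30 to 100 kb had higher ratios of 40 over 10 min than shorter genes had. Set against the median of active genes of the same span class, the targets were still higher by a median of 0.45 (WT without UV), 0.12 (WT with UV), 0.44 (KD without UV) and 0.27 (KD with UV), and 21 to 23 of the 32 lay above their class in each pair. In bulk nuclei, fewer cells with an active gene and less nascent RNA per cell cannot be told apart.

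**Figure D2:**
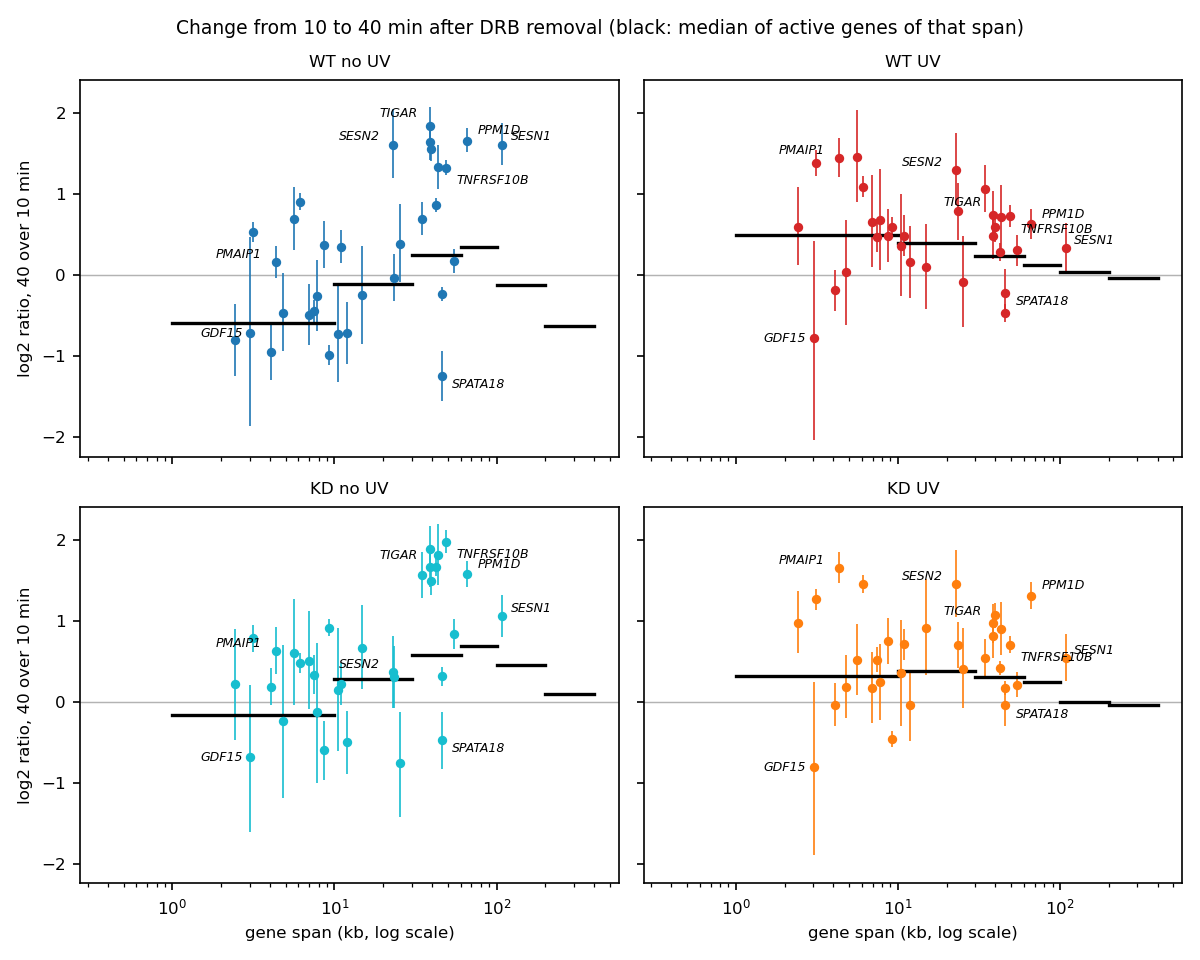
Ratio of nascent RNA at 40 over 10 min (y axis, log2) against gene span (x axis, kb, log scale) for the 32 p53 target genes, in 4 pairs of libraries. Points are genes, bars are exact 95% intervals that cover counting error only, and black lines are medians of active genes by span class. *PPM1D* and *TIGAR* lie above the line in each panel, and *SPATA18* and *GDF15* lie below 0 in all 4.

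The effect of UV on the change over time split the targets by length, although no gene passed the test for it (0.0% in either direction). The change from 10 to 40 min was smaller with UV than without UV in 11 of the 12 targets of 30 to 110 kb (median difference -0.73, log2, averaged over WT and KD) and larger in 19 of the 20 targets under 30 kb (median 0.50). Among active genes, 63.04% of 1726 genes of 30 to 110 kb and 19.75% of 3393 genes under 30 kb had a smaller change with UV, so the split by length is common to active genes. Within WT the change was smaller with UV in 9 of the 12 longer targets and larger in 17 of the 20 shorter, and within KD in 11 and 15. Of the longer active genes 54.98% had a smaller change with UV in WT and 77% in KD. Of the shorter active genes 83.5% had a larger change with UV in WT and 62.25% in KD. The median of active genes was -0.22 for the longer and 0.47 for the shorter class. *SPATA18*, a mediator of mitochondrial quality control near the silent level, was the exception among the longer targets (0.73), and *GDF15* (-0.08) among the shorter. The UV by time term of edgeR called 0 of the 32 targets and 0 of 17840 genes (0.0% in either direction). At an unadjusted p under 0.05 it held 486 genes and 0 targets, and DESeq2 and limma-voom also called 0.

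Reads could be placed along a gene where a shorter annotated transcript shares its start or its end with the longest one. *FBXO22*, an F-box protein that marks methylated p53 for degradation, showed the clearest contrast. Its 3′ part, 8.404 kb that begin 30.23 kb from the start, held 45 reads at 10 min and 348 at 40 min in WT without UV, and 27 and 138 reads in KD without UV. With UV the same part held 45 and 41 reads in WT and 37 and 36 reads in KD. The 40 over 10 min ratio of this part was 1.94 on the log2 scale (exact 95% interval 1.49 to 2.42, counting error only) in WT without UV and -0.37 (-1.02 to 0.27) in WT with UV. It was 2.46 (1.85 to 3.11) in KD without UV and -0.26 (-0.96 to 0.44) in KD with UV. The 5′ part of 30.23 kb was higher at 40 min in all 4 pairs, from 152 to 890 reads, 110 to 215, 108 to 326 and 128 to 300. A second annotated transcript places the division at 26.97 kb and gives a weaker contrast. The remaining 11.66 kb then had ratios without UV of 1.18 (0.89 to 1.49) for WT and 2.06 (1.61 to 2.53) for KD, against 0.08 (-0.34 to 0.51) and 0.11 (-0.36 to 0.58) with UV. By this division the 3′ ratio in WT without UV was below the 5′ ratio of 2.11 (1.78 to 2.46). With either division the interval of the 3′ part lay above 0 in both pairs without UV and included 0 in both pairs with UV.

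*MDM2* differed from *FBXO22* in its 3′ part. Over its last 10.82 kb the 40 over 10 min ratio was 0.41 (0.27 to 0.55) in WT without UV, 0.12 (-0.08 to 0.33) in WT with UV, 1.49 (1.28 to 1.71) in KD without UV and 0.28 (0.13 to 0.43) in KD with UV. That part already had 1.88 to 5.00 CPM per kb at 10 min, and in each library at 10 min it was denser than the 5′ part. The 3′ ends of *TNFRSF10B* and *RRM2B* were also denser than their 5′ parts in most libraries. In WT without UV at 10 min, *RRM2B* had 3.51 CPM per kb in its 3′ part and 0.37 in its 5′ part. Whether reads so far from the start at 10 min came from polymerase released after DRB removal was not tested. Values over whole spans include such reads. In the last 2.178 kb of *TNFRSF10B* the density at 10 min was 9.34 CPM per kb in WT without UV, 4.80 in WT with UV, 2.16 in KD without UV and 7.60 in KD with UV. At 40 min it was 7.45, 6.29, 3.31 and 7.29 CPM per kb in the same order. At either time, KD without UV had the lowest density at this end, and WT without UV and KD with UV the highest.

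**Figure D3:**
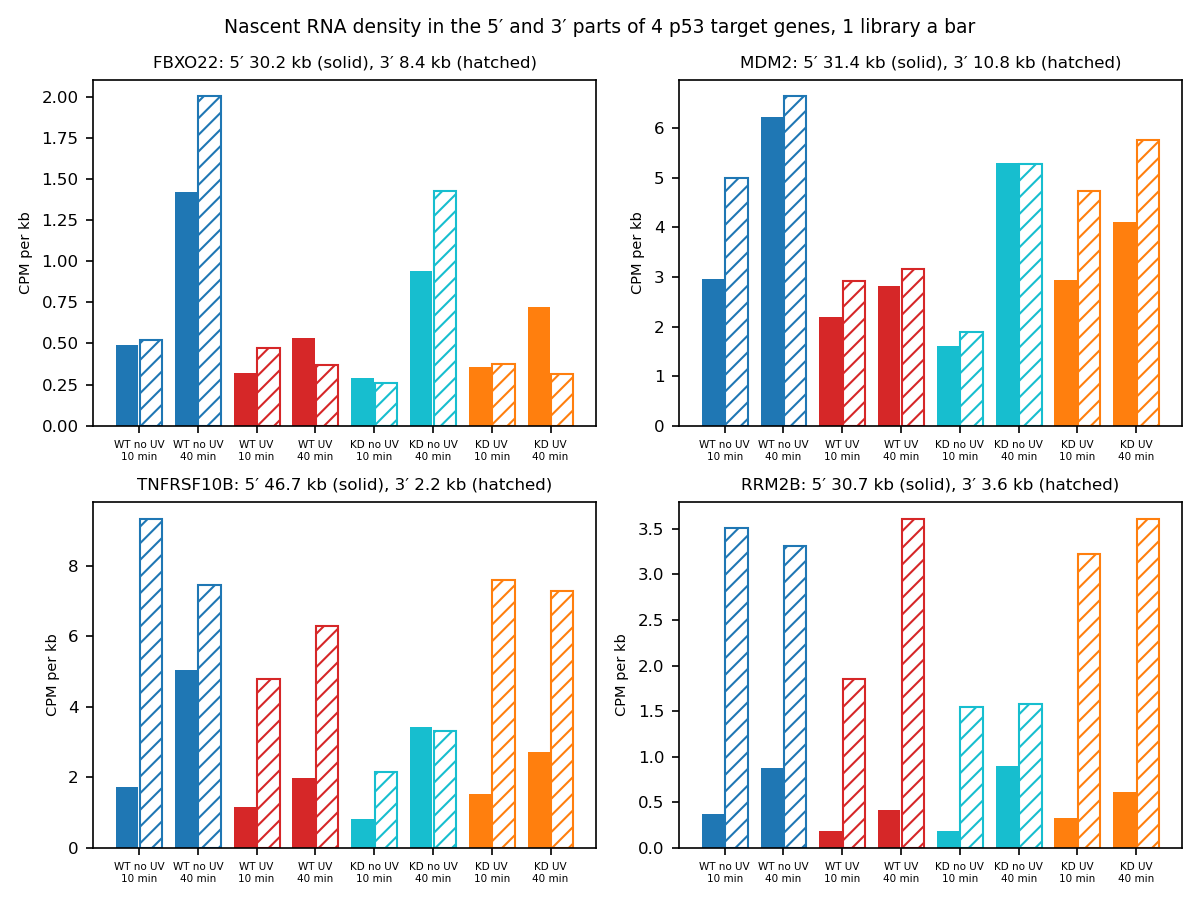
Nascent RNA density (y axis, CPM per kb, from 0) in the 5′ part (solid bars) and 3′ part (hatched bars) of *FBXO22*, *MDM2*, *TNFRSF10B* and *RRM2B* in each of the 8 libraries (x axis). In *FBXO22* the 3′ bars are tall only at 40 min without UV (2.0 CPM per kb in WT and 1.43 in KD), and in *TNFRSF10B* and *RRM2B* the 3′ bars stand above the 5′ bars except in *TNFRSF10B* in KD without UV at 40 min.

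On this relative scale, most p53 targets had less nascent RNA with UV than without it in WT cells, and most had more in the libraries labelled KD. At 10 min, 29 of the 32 genes were lower with UV than without it in WT (median -0.57, log2, against -0.35 over active genes), and at 40 min 22 were lower (median -0.36, against 0.01). At 10 min 3 targets were at least 2-fold lower (7.97% of genes) and 0 higher (3.25%). At least 2-fold lower at 40 min were 8 targets, where 11.7% of tested genes were. All 8 (*MDM2*, *PPM1D*, *FBXO22*, *TNFRSF10B*, *EDA2R*, *POLH*, *SESN1* and *TIGAR*) span over 30 kb. In that pair 2 targets were at least 2-fold higher (*BTG2* and *RPS27L*), where 32.8% of genes were. In the libraries labelled KD, 23 targets were higher with UV at 10 min (median 0.57, against 0.40 over active genes) and 18 at 40 min (median 0.54, against 0.21), and 7 and 10 targets were at least 2-fold higher, where 7.32% and 14.0% of genes were. In KD 0 were at least 2-fold lower at either time (4.11% and 5.58% of genes). Set against active genes of the same span class, the targets differed by a median of -0.15 and -0.39 in WT at 10 and 40 min, with 22 and 23 of the 32 below their class. In KD they differed by 0.13 and 0.00, with 19 and 16 above it, so that in KD at 40 min as many targets lay above their class as below it.

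Over both cells together no target was called for UV by edgeR (0.0% of genes in either direction). This fit counts the difference between the UV effects in WT and KD as spread, which weakens the test. At an unadjusted p under 0.05 there were 304 genes and 0 targets, and DESeq2 and limma-voom also called 0 genes. None of the 32 was higher with UV in all 4 pairs (2.93% of genes were), and *PPM1D* and *SESN1* were lower in all 4 (2.01% of genes were). *CDKN1A* had ratios with over without UV of -0.24 (-0.60 to 0.11, counting interval) and -0.13 (-0.38 to 0.12) in WT at 10 and 40 min, and -0.06 (-0.38 to 0.26) and 1.29 (0.96 to 1.62) in KD. Only the last interval lay away from 0. The fitted UV term of *CDKN1A* was 0.19 and that of *MDM2* -0.24 (log2). In the libraries labelled KD alone, where 1 residual degree of freedom sets the spread, 4 targets were called for UV (all higher, where 4.51% of genes were). In the WT libraries alone 0 targets were called, where only 0.316% of genes were higher and 0.023% lower.

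The ratio of libraries labelled KD to WT was mostly below 1 without UV and above 1 with UV. These ratios use the same 8 libraries as those for UV and are no separate evidence. In 21 of the 32 genes the KD library was below WT in both pairs without UV and above it in both pairs with UV, a pattern that 34.1% of tested genes shared, and the opposite pattern was found in *BTG2* alone (22.4% of genes). The median ratio of KD over WT among the targets was -0.71 and -0.49 without UV at 10 and 40 min, and 0.42 and 0.47 with UV. For active genes the medians were -0.49 and -0.27 without UV, then 0.27 and 0.25 with it. At least 2-fold lower in KD were 11 and 4 targets without UV at 10 and 40 min (14.6% and 7.23% of genes), and 0 and 0 with UV (2.90% and 3.38%). At least 2-fold higher were 0 and 4 without UV (4.76% and 29.4%), and 1 and 2 with UV (2.97% and 2.26%). The knockdown by UV term, which is positive where KD over WT is higher after UV, had a median of 1.02 over the targets and 0.11 over all tested genes. The edgeR test called 3 targets higher (5.04% of genes) and 1 lower (3.95% of genes). At an unadjusted p under 0.05 there were 17 targets and 6907 of 17840 genes. Over all genes 899 were called higher and 704 lower, a split that moved to 920 and 2006 with scaling by library totals and to 732 and 4022 with the span offset. Under these scalings 4 targets were higher and 1 lower, or 2 higher and 2 lower. This term coincides with the table order and moves with the active-over-silent ratio, and their part in it was not tested.

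*PHLDA3*, which encodes a small protein that blocks AKT at the membrane, had the largest term of the 32 (2.90 ± 0.56, edgeR adjusted p = 0.0420). Without UV it had 6.13 and 4.45 CPM in WT at 10 and 40 min and 1.95 and 1.65 CPM in KD. With UV it had 3.46 and 3.54 CPM in WT against 8.4 and 9.55 CPM in KD. Its lowest library was KD without UV at 40 min and its highest KD with UV at 40 min, on 19 to 131 reads per library. *TP53I3*, an oxidoreductase linked to oxidative death, had 6.91 and 5.80 CPM in WT against 2.19 and 2.0 CPM in KD without UV, then 3.10 and 4.97 CPM in WT against 5.86 and 6.92 CPM in KD with UV. KD without UV was again the lowest pair (2.26 ± 0.57, edgeR adjusted p = 0.0431).

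*CCNG1*, cyclin G1, which recruits a phosphatase to MDM2, had 64.8 and 47.5 CPM in WT against 21.6 and 27.1 CPM in KD without UV. With UV it had 34.3 and 47.3 CPM in WT against 45.7 and 65.4 CPM in KD (term 1.67 ± 0.47, edgeR adjusted p = 0.0451). Under a correction for gene span its term was 0.91 and it was no longer called. *BTG2*, an antiproliferative cofactor of mRNA decay and an immediate early gene, was the only target called lower (-1.65 ± 0.48, edgeR adjusted p = 0.0486). It had 13.6 and 7.05 CPM in WT against 25.1 and 28.5 CPM in KD without UV, and 23.3 and 20.5 CPM in WT against 19.0 and 18.5 CPM in KD with UV. Both WT libraries without UV lay below the other 6 libraries, whereas the 4 libraries with UV lay close together.

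**Figure D4:**
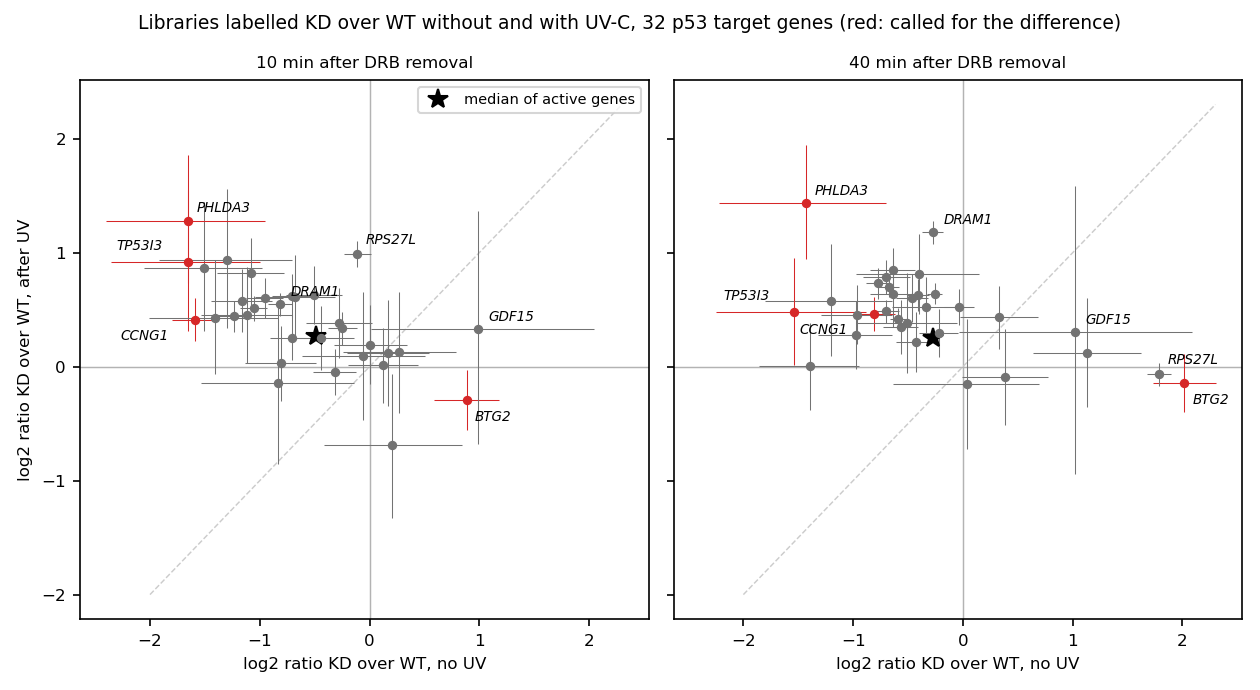
Ratio of the libraries labelled KD over WT (log2) without UV (x axis) and with UV (y axis) for the 32 p53 target genes at 10 min (left) and 40 min (right). Bars are exact 95% intervals for counting error only, the star is the median of active genes, the dashed line marks equal ratios, and the genes called for the difference are red. Most targets lie in the upper left, *PHLDA3* farthest from the dashed line, and *BTG2* lies on the right below 0.

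Read against active genes of the same span, the difference became smaller. The ratio KD over WT with UV minus that without UV was positive in 26 of the 32 targets at either time, with medians of 1.11 at 10 min and 1.05 at 40 min. Active genes had medians of 0.75 and 0.65. Averaged over 10 and 40 min, the difference was positive in 15 of 20 targets under 30 kb and 12 of 12 targets of 30 to 110 kb. Among active genes of these spans it was positive in 71.88% of 3393 and 66.63% of 1726, so most active genes shared this sign. Above the median of their span class were 18 targets at 10 min and 22 at 40 min, by a median over the 32 genes of 0.25 and 0.37. *PHLDA3* stayed 1.72 and 1.90 above its class at 10 and 40 min, and *BTG2* lay at -2.36 and -3.08 from its own.

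Leaving out any 1 of the 4 libraries labelled KD left 0 targets called for this term, and 9 to 31 of all genes, although the terms themselves moved little. That of *PHLDA3* then lay between 2.68 and 3.10, and that of *BTG2* between -1.92 and -1.51. Leaving out WT without UV at 10 min, in contrast, gave 18 called targets (22.7% of genes higher and 20.4% lower), leaving out WT with UV at 10 min gave 12 (13.5% and 17.1%), and leaving out WT without UV at 40 min gave 8 (7.45% and 5.13%). Which targets pass thus rests on single libraries, while the direction of these 4 did not turn in any alternative run.

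Further targets had terms that did not pass the test. Among the apoptosis effectors, *PMAIP1* had a knockdown by UV term of 1.67 ± 0.53 (edgeR adjusted p = 0.0549), *BAX*, the pore-forming effector of mitochondrial apoptosis, 1.62 ± 0.56 (0.0658) and *AEN*, a nuclear exonuclease of apoptosis, 1.31 ± 0.43 (0.0576). Of the 8 apoptosis effectors, 7 had a positive term, and *BBC3*, which encodes the BH3-only protein PUMA, had -0.27. Terms below 0 were also those of *TNFRSF10C* (-0.92), *GDF15* (-0.68) and *RPS27L* (-0.37). *TRIAP1*, an inhibitor of apoptosome assembly, had 1.62 ± 0.62, and *DRAM1*, a lysosomal activator of autophagy, 1.39 ± 0.46. *RPS27L* stood apart in where its reads lay. Its 5′ 3.428 kb held 4.06 to 22.0% of its reads in each library, and the remainder lay in the 3′ 5.604 kb, beyond the end of the shorter transcript. Its level was 100.8 and 50.9 CPM in WT without UV, 78.7 and 118.8 CPM in WT with UV, 93.4 and 175.8 CPM in KD without UV, and 156.2 and 113.4 CPM in KD with UV.

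Averaged over UV, no difference between KD and WT was detectable for the targets in fits that give KD 1 effect with and without UV. Such fits count the difference between those 2 effects as spread, which weakens the test. No target and no gene was called for knockdown by edgeR (0.0% in either direction), DESeq2 or limma-voom, with 84 genes and 0 targets at an unadjusted p under 0.05. The median term was -0.04 over the targets and 0.04 over all tested genes, 1 target (*GDF15*, on 11 to 31 reads per library) was higher in KD in all 4 pairs (3.09% of genes were) and 0 were lower in all 4 (1.73% of genes were). In the 4 libraries without UV alone, 1 target was called higher in KD (12.8% of genes) and 5 lower (8.08%), and in the 4 with UV alone 3 were called higher (1.94%) and 0 lower (2.72%), each with 1 residual degree of freedom. The knockdown by time term called 0 targets and 0 genes as well (0.0% in either direction), with 10 genes and 0 targets at an unadjusted p under 0.05.

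The regulators of p53 and further p53 targets were read in the same fits. *MDM4*, the partner of MDM2, had 46.2 and 79.2 CPM in WT against 32.4 and 63.6 CPM in KD without UV at 10 and 40 min, and 40.7 and 41.4 CPM in WT against 46.7 and 63.8 CPM in KD with UV. Of 28 tested regulators of p53, 0 were called for UV, knockdown, time, UV by time or knockdown by time, and 2 were called higher for knockdown by UV, where 5.04% of all genes were (*RPL11*, a ribosomal protein that binds MDM2, 2.37 ± 0.55, and *TP53RK*, a p53 kinase, 2.13 ± 0.62). *RPL5* (127.7 CPM per kb), *RPL11* (10.8 CPM per kb) and *CDKN2A* (4.76 CPM per kb) were the densest of that list.

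Of 58 further tested p53 targets outside the 32, 0 were called for UV, knockdown, time, UV by time or knockdown by time, and 8 were called higher and 2 lower for knockdown by UV, where 5.04% and 3.95% of all genes were. Those called higher included *DDB2*, the lesion sensor of global-genome repair (1.49 ± 0.43) and *PCNA*, the replication clamp (1.66 ± 0.47), together with *ENC1*, *EPHA2*, *PLXNB2*, *SLC12A4* and *TRIM22* (1.62 to 2.02). *PADI4* (-2.41 ± 0.50) and *SYTL1* (-2.10 ± 0.60) were called lower. Densities over the libraries were 1.53 to 4.16 times the silent level for *PADI4*, 1.25 to 2.45 for *SYTL1* and 0.78 to 5.13 for *TRIM22*. Terms of these genes thus concern reads at or near the background. Among the densest of this list were *THBS1* (34.8 CPM per kb) and *PCNA* (15.5 CPM per kb). *DDB2* had 18.0 and 43.5 CPM in WT against 10.1 and 20.7 CPM in KD without UV, and 10.0 and 19.4 CPM in WT against 13.7 and 29.4 CPM in KD with UV, so that KD was lower without UV and higher with it at either time. The median knockdown by UV term was 0.64 over the regulators and 0.66 over the further targets, between those of all tested genes (0.11) and of the 32 targets (1.02).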

How the data were processed

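The submitters' processing notes name hg38, BWA 0.5.9 and SAMtools for the GRO-seq reads. The authors deposited 1 table of whole-number counts per transcript for each library, without normalization. For the counter and the annotation, the version was not given in the sources used here. Counts covered whole spans, introns included, and were specific to the strand as tested on the files: in 40961 pairs of a transcript within another on the same strand the inner never had more reads, and in 172 of 1310 pairs on opposite strands it did. Library totals of 10.23 to 21.08 M reads set the precision, and intervals cover counting error only, since reads without molecular identifiers are not independent molecules.

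The transcript with the largest span was taken for each of 19351 genes. Low genes were removed by filterByExpr (minimum count 10, minimum total 15), which kept 17840 genes and all 32 targets. The quasi-likelihood F-test of edgeR 4.0.16 (R 4.3.3) with TMM scaling was fitted over all 8 libraries with knockdown, UV and time as additive terms (4 residual degrees of freedom), or with 1 interaction added (3). P-values were adjusted by Benjamini-Hochberg over all genes tested and called under 0.05. Pairs of libraries were compared with 0.5 reads added for medians and exact binomial intervals at 95% for single genes, and 2-fold was the limit for counts in pairs. Python 3.11.15 with pandas 2.3.3 and scipy 1.17.1 was used for the rest. The fit was tested on simulated data.

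Silent level means the median density of 92 genes of the CYP, GABR, SERPINA, CEACAM and KLK families. It replaced the planned olfactory receptor genes, of which the tables held 1. Active genes lay at least 3 times above it in all 8 libraries. Span classes had limits of 10, 30, 60, 100 and 200 kb. Gene parts came from a shorter transcript sharing its start or its end within 300 bp and leaving at least 2000 bp. Single values in all libraries were given for targets called in any term, for those with 1 sign and at least 2-fold in 3 or 4 of the 4 pairs of a comparison, and for the densest target of each of the 7 roles. Values of *CDKN1A*, *FBXO22*, *RRM2B*, *DDB2* and *GDF15* beyond that rule were chosen after they were seen. In place of the planned promoter windows, p53 elements of 20 bases are printed. Some genes of the lists that the rule would name are not reported here. The targets and all lists were chosen with earlier results of these data known. The alternatives were RLE size factors, library totals, a span offset (lowess over active genes, span 0.3), no filter, DESeq2 1.42.0, limma-voom (limma 3.58.1), table order as a covariate, the shortest transcript, leaving out each library, and fits within 1 level of a factor. A filter by library and robust edgeR were added after seeing the data.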

Additional observations from a re-analysis of the deposited data

Results flagged for a closer look

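The effect of the knockdown label differed between the libraries with and without UV, by the test of the difference itself (edgeR, knockdown by UV), in 4 of the 32 targets, 3 higher (5.04% of genes) and 1 lower (3.95% of genes). *PHLDA3* had a term of 2.90 on the log2 scale, *TP53I3* 2.26, *CCNG1* 1.67 and *BTG2* -1.65. The term coincides with the order of transcripts in the deposited tables, from which it cannot be told apart, and an exchange of labels was not tested.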

How the results depend on the processing

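Counts of targets called changed with the processing, while the direction of each named target (*PHLDA3*, *TP53I3*, *CCNG1* and *BTG2* for knockdown by UV, and *PPM1D*, *POLH*, *SESN2*, *TIGAR*, *FBXO22*, *EDA2R*, *TNFRSF10B* and *PLK2* for time) was the same under every alternative run. For time, where edgeR called 0 targets, RLE size factors gave 1 (1.96% of genes higher), DESeq2 9 (8.54%), table order as a covariate 14 (16.6%), the shortest transcript 2 (2.90%), the KD libraries alone 6 (7.79%), those without UV alone 9 (15.4% higher and 15.7% lower), those with UV alone 13 (12.7% and 9.95%) and the filter by library 2 (2.91%). Leaving out 1 library gave 0 to 7, with 7 without WT with UV at 40 min, 6 without KD with UV at 10 min and 3 without KD without UV at 40 min. For knockdown by UV, with 4 targets called, RLE size factors gave 12 (12.4% of genes higher and 14.5% lower), DESeq2 14 (14.0% and 14.6%), the filter by library 12 (13% and 14.6%), the shortest transcript 1 (0.721% and 0.838%) and leaving out 1 library 0 to 18. For UV the KD libraries alone gave 4 in place of 0 (4.51% of genes higher and 2.33% lower). For knockdown the libraries without UV alone gave 6 (12.8% and 8.08%) and those with UV alone 3 (1.94% and 2.72%). UV by time and knockdown by time gave 0 in each alternative. All genes called for time numbered 26, against 0 to 5408 over the alternatives, and those for knockdown by UV 1603, against 9 to 7820. In the single pairs, target values at least 2-fold higher with UV numbered 19, against 12 with RLE size factors and 8 with the span offset. Those at least 2-fold lower in KD numbered 15, against 5 with the span offset. Those at least 2-fold lower at 40 min numbered 1, against 0 with RLE size factors, 4 with library totals and 5 with the span offset. The cause of these shifts was not tested. Library totals moved the median time term of all genes from -0.10 to -0.24 and that of the targets from 0.39 to 0.26, and the span offset to -0.25 and 0.20. For knockdown by UV they moved these medians from 0.11 to -0.06 and from 1.02 to 0.83, and the span offset to -0.29 and 0.39. RLE size factors moved the UV by time medians from 0.30 to 0.14 and from 0.23 to 0.05, and the span offset to 0.16 and -0.14, so that the median of the targets turned. Leaving out 1 library put that median between -0.42 and 0.53, below 0 without WT without UV at 10 min (-0.35), WT with UV at 10 min (-0.29), KD without UV at 40 min (-0.42) or KD with UV at 40 min (-0.13). The adjusted p ranged from 0.000242 to 0.123 for *PHLDA3*, from 0.00365 to 0.135 for *TP53I3*, from 0.00363 to 0.183 for *CCNG1* and from 0.00360 to 0.172 for *BTG2* over the alternatives, and from 0.00138 to 0.379 for *PPM1D* in time. Each group held 1 library, so there were no shared replicate numbers to block on. For time, the fit with table order has the same terms as one with the 4 pairs of cell and UV as blocks. It is thus the paired fit, and the main fit for time leaves this pairing out. Knockdown by UV with table order could not be fitted, nor could interactions within 1 level of a factor. Depth limits *GDF15*, *FDXR*, *PHLDA3*, *TP53I3*, *TNFRSF10C*, *FAS*, *BAX* and *BBC3*, with 11 to 146 reads per library.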
